A study of Mus musculus with 6 samples.

Results

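The genes described here are 7 Schlafen genes (*Slfn1*, *Slfn2*, *Slfn3*, *Slfn4*, *Slfn5*, *Slfn8* and *Slfn9*), the importin gene *Kpna2* and the long noncoding RNA gene *C130046K22Rik*, all on mouse chromosome 11, the chromosome of *Stat3*. These 9 genes were taken by symbol from the 44556 genes counted in each library. They were chosen by their read counts in these same libraries, because several of them differed strongly between the genotypes. Their differences are therefore given as a description, and nothing is read from how many of them passed a test. Differences are given as the log2 ratio of *OsxCre;Stat3fl/fl* to *OsxCre* with its standard error (SE) from a model fitted to all genes. RNA-seq was carried out on the parietal bone, a flat bone of the calvaria, of newborn C57BL/6 mice, with 3 libraries from *OsxCre* mice and 3 from *OsxCre;Stat3fl/fl* littermates. Both genotypes carry *OsxCre*, a transgene that expresses Cre recombinase mainly in osteoblast precursors, and in *OsxCre;Stat3fl/fl* mice Cre removes some exons of *Stat3* in those cells. The bone also holds cells without Cre, such as blood, vessel and muscle cells, in which *Stat3* is not removed. By the Methods, the mice of each genotype were as many as its libraries.

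Schlafen genes form a family that has expanded in rodents, and many of its members are induced by type I interferon, a signalling protein of antiviral defence. They are best known in lymphocytes and myeloid cells, where they act in quiescence, differentiation and the restriction of viruses. Short members such as *Slfn1* and *Slfn2* consist mainly of the Schlafen core, *Slfn3* and *Slfn4* are of intermediate length, and *Slfn5*, *Slfn8* and *Slfn9* are long members with a helicase-like C-terminal part. *Kpna2* encodes an importin alpha, the adaptor that binds a nuclear localization signal and is carried into the nucleus by importin beta. No function is given here for *C130046K22Rik*.

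On GRCm38, the 7 Schlafen genes lay within 264 kb, from 82951349 to 83215154 on chromosome 11, in the order *Slfn5*, *Slfn9*, *Slfn8*, *Slfn2*, *Slfn1*, *Slfn4* and *Slfn3*. *Slfn8* and *Slfn9* were neighbours on the minus strand, and the other 5 were on the plus strand. The promoter windows of *Slfn9*, *Slfn8* and *Slfn5*, from 250 bases before to 50 bases after a RefSeq transcript start, are shown because the first 2 belong to the Schlafen genes that were lower and the third to the most counted Schlafen gene. The window of *C130046K22Rik* is shown because this gene differed most and starts back to back with *Gosr2*. They lie at chr11:82991781-82992080 on the minus strand, chr11:83020761-83021060 on the minus strand, chr11:82951852-82952151 on the plus strand and chr11:103697474-103697773 on the plus strand of GRCm38.p6. The transcript start in the *Slfn5* window, at 82952102, lies 753 bases inside the gene as RefSeq bounds it, and the other 3 transcript starts are the first base of their gene. Capitals mark a match, on either strand, to TTTC, any 2 bases and TTTC, the core that many interferon response elements share.
Slfn9: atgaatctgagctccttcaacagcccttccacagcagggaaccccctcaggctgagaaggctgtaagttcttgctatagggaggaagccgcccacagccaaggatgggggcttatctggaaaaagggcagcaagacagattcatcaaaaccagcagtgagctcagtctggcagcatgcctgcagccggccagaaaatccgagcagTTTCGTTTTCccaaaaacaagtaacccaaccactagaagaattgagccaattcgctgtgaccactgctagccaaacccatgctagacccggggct
Slfn8: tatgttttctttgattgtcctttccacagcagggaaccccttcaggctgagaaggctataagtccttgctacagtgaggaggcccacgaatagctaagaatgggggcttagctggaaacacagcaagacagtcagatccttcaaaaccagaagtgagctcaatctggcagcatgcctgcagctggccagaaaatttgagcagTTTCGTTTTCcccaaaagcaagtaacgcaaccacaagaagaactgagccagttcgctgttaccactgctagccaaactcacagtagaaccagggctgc
Slfn5: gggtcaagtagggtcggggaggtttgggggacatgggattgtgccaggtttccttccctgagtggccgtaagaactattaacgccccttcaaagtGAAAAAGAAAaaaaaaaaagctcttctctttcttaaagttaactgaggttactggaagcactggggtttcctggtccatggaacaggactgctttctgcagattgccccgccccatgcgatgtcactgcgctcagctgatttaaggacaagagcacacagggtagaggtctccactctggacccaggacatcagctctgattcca
C130046K22Rik: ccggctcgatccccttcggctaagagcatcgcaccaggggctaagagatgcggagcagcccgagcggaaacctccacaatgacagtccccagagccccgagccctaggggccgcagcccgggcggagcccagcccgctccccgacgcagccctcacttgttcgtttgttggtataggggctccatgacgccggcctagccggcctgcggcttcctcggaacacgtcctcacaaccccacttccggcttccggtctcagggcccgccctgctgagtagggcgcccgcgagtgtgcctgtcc

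Counted from the transcript start in each window shown, the match began 45 bases before that of *Slfn9*, 48 bases before that of *Slfn8* and 155 bases before that of *Slfn5*, where it was on the other strand and inside the RefSeq gene. The same match began 136 bases before the transcript start of a second *Slfn8* window. The other 6 genes had no match in their windows. Of 32851 windows of this length over RefSeq genes outside chromosome 18, 3.44% held the motif. The windows of *Slfn8* and *Slfn9* aligned over 273 positions, of which 241 (88.3%) were identical. TTCNNNGAA, the core of a STAT site, was in 8.30% of the 32851 windows and in none of the 9 genes' windows. The stricter TTCCNGGAA was in 1.15% of the 32851 windows and also in none of the 9 genes' windows. These are matches of letters, and binding was not measured.

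Each library held between 8193651 and 12080044 counts, and 15600 genes, the 9 genes among them, passed the filter on low counts. *Stat3* had 149, 134 and 141 CPM (counts relative to the TMM-scaled library size) in the *OsxCre* libraries and 152, 154 and 155 CPM in those labelled *OsxCre;Stat3fl/fl*, a log2 ratio of 0.12 (SE 0.07) with an adjusted p of 0.442 in edgeR's quasi-likelihood test. Its count over the whole gene was thus not lower. Because only some exons are floxed and only some cells carry active Cre, that count does not check the labels, and these libraries are called floxed-labelled here. Among osteoblast markers, *Runx2* had 51.4 CPM, *Sp7* 114 CPM and *Col1a1* 13020 CPM on average in the *OsxCre* libraries, so the defining genes of bone-forming cells were present. *Xist* had between 7333 and 12392 counts and each of 4 Y-linked genes at most 1 count in every library, although the study describes male newborns.

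Of the 9 genes, *Slfn8*, *Slfn9*, *Kpna2* and *C130046K22Rik* were lower in every floxed-labelled library than in any *OsxCre* library. *Slfn2* and *Slfn5* were higher without overlap, and *Slfn1*, *Slfn3* and *Slfn4* overlapped. Over all 15600 genes, 12.2% were lower and 10.8% higher without overlap. In the fit across all genes, 4 of the 9 passed an adjusted p of 0.05 in the lower direction, where 0.481% of all genes did, and 0 in the higher direction, where 0.776% did. With 1 library left out, between 1 and 3 of the 9 passed in the lower direction. In those fits between 5 and 36 of all genes tested did, with 15830 to 16210 genes tested. Since the genes were listed for this contrast, nothing is read from these counts. The median log2 ratio of the 9 genes was -0.09, and that of all genes tested was -0.0037.

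**Figure D1:**
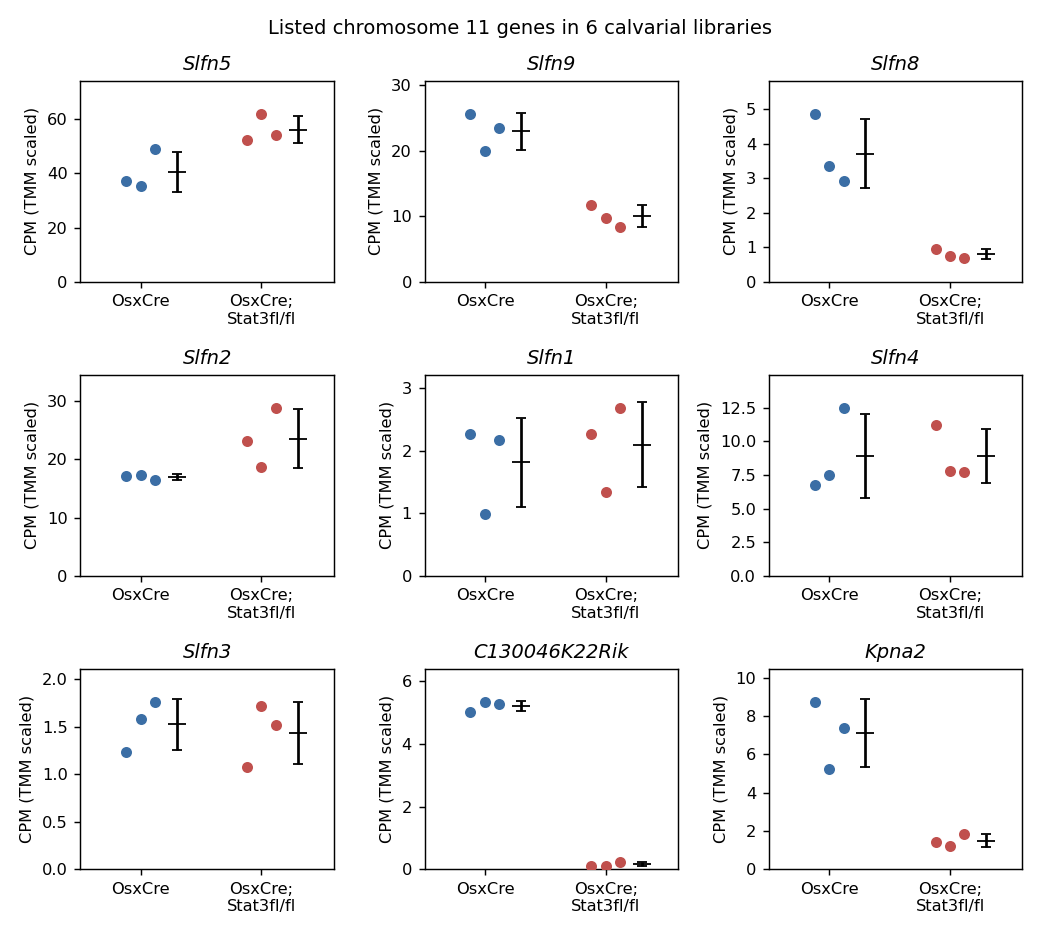
CPM of each of the 9 listed genes in the 3 *OsxCre* (blue) and 3 *OsxCre;Stat3fl/fl* (red) libraries, with the mean and SD in black beside the points and a separate vertical axis from 0 for each gene. The red points of *Slfn9*, *Slfn8*, *Kpna2* and *C130046K22Rik* all lie under the blue ones, those of *Slfn2* and *Slfn5* all lie above, and those of *Slfn1*, *Slfn3* and *Slfn4* are mixed.

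*Slfn9*, one of the long Schlafen genes, had 269, 202 and 280 counts in the *OsxCre* libraries and 98, 80 and 72 counts in the floxed-labelled libraries. After scaling, these were 25.5, 19.97 and 23.4 CPM against 11.7, 9.78 and 8.40 CPM. The highest floxed-labelled value was therefore well under the lowest *OsxCre* value. The means were 23.0 ± 2.81 and 9.97 ± 1.68 CPM (SD, n = 3 each), and the log2 ratio was -1.20 (SE 0.16).

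*Slfn8*, the next gene and another long member, was counted less. It had 51, 34 and 35 counts in the *OsxCre* libraries, or 4.84, 3.36 and 2.93 CPM. In the floxed-labelled libraries it had 8, 6 and 6 counts, or 0.958, 0.734 and 0.700 CPM. *OsxCre* library 1 was the highest and all 3 floxed-labelled libraries were close together. The log2 ratio was -2.20 (SE 0.32), the largest difference among the Schlafen genes with TMM scaling, and it rested on 20 floxed-labelled counts against 120. *Slfn8* and *Slfn9* resemble each other in sequence, so reads could be assigned to the wrong copy. Of the 50-base stretches of each transcript, 15.5% occurred exactly elsewhere in the genome, mainly in *Slfn10-ps* and in the other gene of the pair, and of 100-base stretches 3.71% for *Slfn8* and 4.31% for *Slfn9* did. *Slfn10-ps*, the pseudogene beside them that holds most of these stretches, had 7, 9 and 15 counts in the *OsxCre* libraries and 12, 5 and 7 in the floxed-labelled ones. These overlapped, and the pseudogene had too few counts to be tested.

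*Slfn5*, the long member at the start of the cluster, gave the most counts of the family. It had 37.1, 35.4 and 49.0 CPM in the *OsxCre* libraries and 52.5, 61.7 and 54.2 CPM in the floxed-labelled libraries. The groups did not overlap, but *OsxCre* library 3 was close to the lowest floxed-labelled library. This gave a log2 ratio of 0.47 (SE 0.14), and without scaling for library size it was 0.08. Its antisense gene *Slfn5os* had at most 1 count in any library. The library kit did not mark strand, so reads of the pair cannot be told apart where they overlap.

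*Slfn2*, a short member needed for the quiescence of T cells and monocytes, had 17.2, 17.4 and 16.4 CPM in the *OsxCre* libraries. It had 23.1, 18.7 and 28.8 CPM in the floxed-labelled libraries, which were all higher and much more spread. Its log2 ratio was 0.47 (SE 0.16), and it was 0.10 without scaling.

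The other 3 Schlafen genes had no clear direction. *Slfn4*, a myeloid gene, had 6.74, 7.51 and 12.5 CPM in the *OsxCre* libraries and 11.3, 7.82 and 7.70 CPM in the floxed-labelled libraries. Its log2 ratio was -0.0012 (SE 0.28), and 1 high library stood in each genotype. *Slfn1* had 2.28, 0.989 and 2.18 CPM against 2.28, 1.35 and 2.68 CPM, a log2 ratio of 0.21 (SE 0.40). *Slfn3* was near 1.5 CPM in both genotypes, with 1.23, 1.58 and 1.76 CPM against 1.08, 1.71 and 1.52 CPM and a log2 ratio of -0.09 (SE 0.31). The sign of the log2 ratio of each of these 3 genes turned under at least 1 other setting, and 22.4% of the 50-base stretches of *Slfn3* occurred elsewhere, mainly in *Slfn4* and the pseudogene *Gm11427*. The relatives outside the list were barely counted. *Slfn14*, a long member known from reticulocytes, had between 0 and 7 counts in a library, and *Slfnl1*, a Schlafen-like gene on chromosome 4, between 0 and 4 counts.

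The reads on the 7 Schlafen genes summed to 1000, 872 and 1292 counts in the *OsxCre* libraries and to 859, 833 and 892 counts in the floxed-labelled ones. As a sum the family was thus at 96.4 ± 11.04 CPM (SD, n = 3) in *OsxCre* and at 102.9 ± 1.10 CPM (SD, n = 3) in the floxed-labelled libraries, with the *OsxCre* values lying on both sides. The make-up of this sum is given as a description only, because the genes were chosen by these same counts. *Slfn8* and *Slfn9* together held 32.0%, 27.1% and 24.4% of the Schlafen reads in the *OsxCre* libraries, with 95% binomial intervals (Wilson, counting error only) from 22.1% to 35.0% over the 3 libraries. In the floxed-labelled libraries they held 12.3%, 10.3% and 8.74%, with intervals from 7.06% to 14.7%. *Slfn5* held 41.8% ± 3.16 (SD, n = 3) and 54.6% ± 5.26 (SD, n = 3), respectively. Shares of the same sum are tied, so a lower share of *Slfn8* and *Slfn9* by itself raises those of the other genes. These shares are made of the listed genes only and do not depend on the scaling of the libraries.

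**Figure D2:**
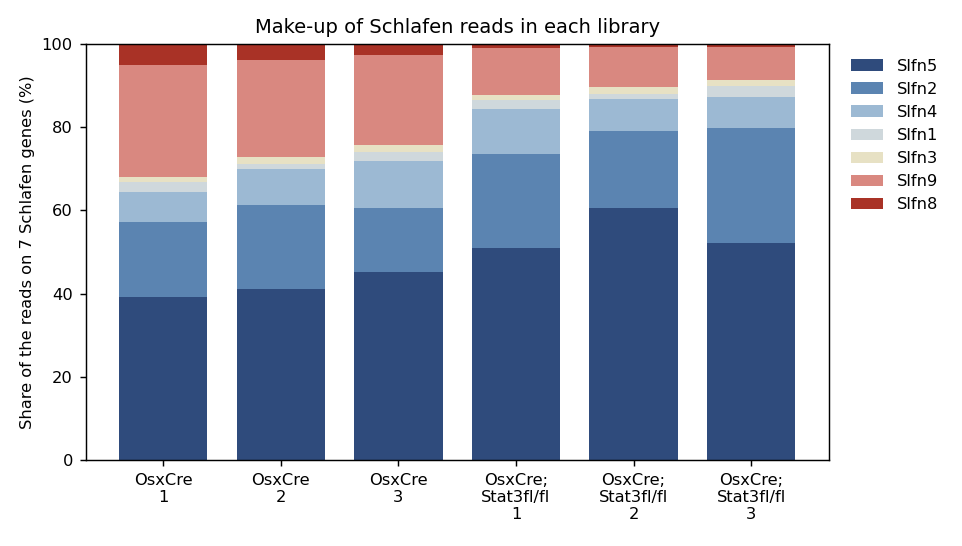
Share (%) of the counts on the 7 Schlafen genes that each gene held, as a stacked bar from 0 to 100% for each of the 6 libraries. The *Slfn8* and *Slfn9* parts together are between 24.4% and 32.0% in *OsxCre* and between 8.74% and 12.3% in *OsxCre;Stat3fl/fl*, while *Slfn5* makes up over 50% of each *OsxCre;Stat3fl/fl* bar.

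*C130046K22Rik* differed most of the listed genes. It had 53, 54 and 63 counts in the *OsxCre* libraries, or 5.03, 5.34 and 5.27 CPM. In the floxed-labelled libraries it had 1, 1 and 2 counts, or 0.120, 0.122 and 0.233 CPM. The 3 *OsxCre* values were nearly equal, and the floxed-labelled values were at or under the floor of 3 counts. With 170 counts against 4 and the scaled library sizes, the ratio of *OsxCre* to floxed-labelled was 32.7, with an exact 95% interval of 12.6 to 121 that covers counting error only. The gene has 3 exons, and none of its 50-base stretches occurred elsewhere in the genome. It lies on the plus strand from 103697724 to 103725573 on chromosome 11 of GRCm38, and RefSeq ends *Gosr2*, which encodes a Golgi SNARE and is read in the other direction, directly before it. *Gosr2* had 139, 142 and 136 CPM in the *OsxCre* libraries and 132, 134 and 129 CPM in the floxed-labelled ones, a log2 ratio of -0.08 (SE 0.06, adjusted p = 0.600). The gene pair that starts back to back at the window shown above thus had a 32.7-fold ratio for the noncoding gene. The CPM values of the coding gene were only slightly lower, though without overlap.

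*Kpna2* had 92, 53 and 88 counts in the *OsxCre* libraries, or 8.73, 5.24 and 7.37 CPM. It had 12, 10 and 16 counts, or 1.44, 1.22 and 1.87 CPM, in the floxed-labelled libraries, all of them under every *OsxCre* library. This was a log2 ratio of -2.23 (SE 0.29). The value is uncertain, because *Kpna2* has processed copies: 92.7% of the 50-base stretches of its transcript, and 88.5% of the 100-base stretches, occurred exactly elsewhere, mainly in *Gm10184* and *Gm10259*. The stretches found nowhere else were confined to bases 1 to 129 and 853 to 968 of 2054. How reads with several matches were counted is not given in the sources used here, so the count of *Kpna2* may hold only a small part of its reads. *Gm10184* had 13, 5 and 10 counts against 9, 8 and 10, and *Gm10259* had 6, 3 and 2 against 3, 6 and 9. The values of both copies overlapped between the genotypes.

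Other genes of nuclear import (importins, transportins, the importin alpha exporter *Cse1l*, and *Ran* with its regulators *Rangap1* and *Rcc1*) were compared as a list fixed with earlier results of these data known. Of 19 tested, 0 passed an adjusted p of 0.05 in either direction with TMM scaling, and their median log2 ratio was -0.13. Without scaling for library size, where the median of all genes was -0.38 and 34.9% of all genes passed as lower, 15 of the 19 did. *Kpna1*, *Kpna3*, *Kpna4* and *Kpna6*, the other importin alphas of most tissues, had log2 ratios of -0.08, -0.31, -0.11 and 0.06, with adjusted p-values of 0.716, 0.167, 0.581 and 0.779. *Kpnb1*, importin beta, had 238 ± 7.78 and 214 ± 3.39 CPM (SD, n = 3 each), a log2 ratio of -0.15 (adjusted p = 0.325). *Kpna2* is also high in dividing cells. Of 15 proliferation genes, 0 passed the test with TMM scaling and 5 passed as lower without scaling, a share near that of all genes. Their median log2 ratio was -0.04, and between -0.13 (without *OsxCre* replicate 2) and 0.16 (without *OsxCre* replicate 1) with 1 library left out. *Mki67*, a marker of cycling cells, had 144 ± 23.0 and 140 ± 2.14 CPM (SD, n = 3 each; adjusted p = 0.920).

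Levels were compared between genes as mean CPM per kb of exons. The place of *Kpna2* is uncertain in both genotypes, because its count may hold only a small part of its reads. In *OsxCre*, *Slfn2* (10.2 CPM per kb) and *Slfn5* (9.15 CPM per kb) were highest and overlapped between libraries. Next came *C130046K22Rik* (6.68), *Slfn9* (4.86) and *Kpna2* (2.48 CPM per kb), each apart from the gene above it. *Kpna2* overlapped with *Slfn4* (2.22 CPM per kb), and *Slfn1* (0.973), *Slfn8* (0.907) and *Slfn3* (0.839 CPM per kb) were lowest and overlapped from each gene to the next. In the floxed-labelled libraries *Slfn2* (14.1) and *Slfn5* (12.7 CPM per kb) again overlapped at the top. *Slfn4* (2.23) and *Slfn9* (2.11 CPM per kb) then overlapped, as did *Slfn1* (1.13), *Slfn3* (0.790) and *Kpna2* (0.525 CPM per kb) from each to the next. *C130046K22Rik* (0.203) and *Slfn8* (0.195 CPM per kb) overlapped at the bottom. *C130046K22Rik* was thus at rank 3 in *OsxCre* and at rank 8 in the floxed-labelled libraries, and *Slfn8* at rank 8 and rank 9.

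The genes around the listed ones were read next. Of the 18 nearest tested neighbours, 3 on each side of the Schlafen cluster, of *C130046K22Rik* and of *Kpna2*, 1 passed an adjusted p of 0.05, *AA465934*. This long noncoding RNA gene starts at 83291699, 76.5 kb beyond *Slfn3*, the last listed Schlafen gene. The Schlafen gene *Slfn14*, which was not tested, lies between them, from 83275110 to 83286726. *AA465934* had 1.71, 3.26 and 1.93 CPM in the *OsxCre* libraries and 21.4, 20.8 and 19.9 CPM in the floxed-labelled libraries. Its log2 ratio was 3.17 (SE 0.24, adjusted p = 0.0029), opposite to *Slfn8* and *Slfn9*. The other 17 neighbours had log2 ratios between -0.44 and 1.13 and adjusted p-values of 0.161 or more. The highest of these was *Unc45bos*, antisense to *Unc45b*, at 0.613 ± 0.134 and 1.35 ± 0.115 CPM (SD, n = 3 each). Without strand, its reads cannot be told apart from those of *Unc45b* where both overlap. *Unc45b*, a myosin chaperone gene, had a log2 ratio of -0.25 (adjusted p = 0.498), and *Nle1* one of -0.14 (adjusted p = 0.625). Beside *C130046K22Rik*, *Wnt3*, *Nsf*, *Arf2*, *Arhgap27* and *Plekhm1* had log2 ratios between -0.24 and 0.10. Beside *Kpna2*, those of *Smurf2*, *Cep95*, *Ddx5*, *Bptf*, *Nol11* and *Pitpnc1* were between -0.31 and 0.24. No neighbour of either gene passed the test.

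**Figure D3:**
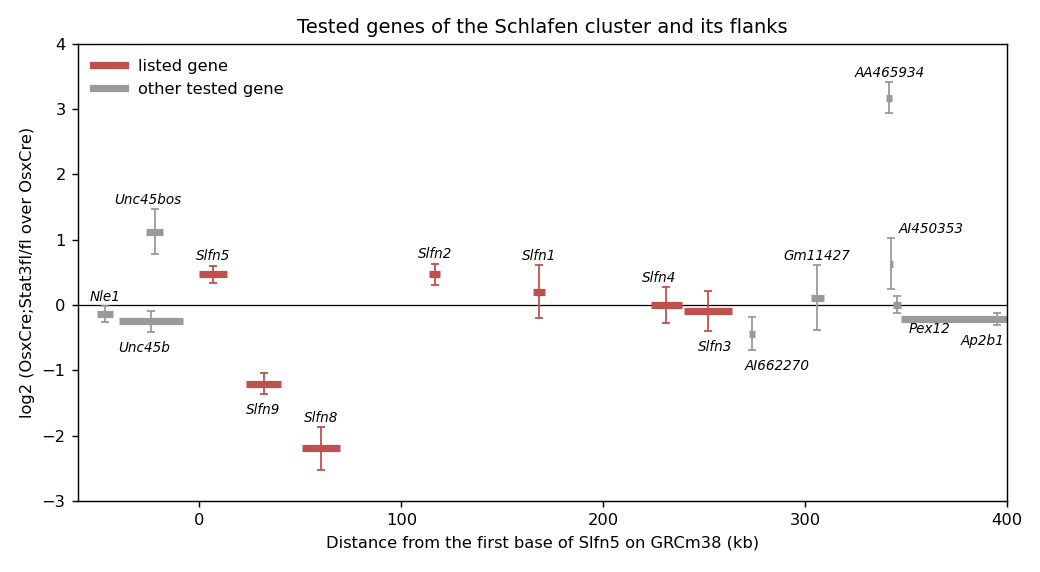
Values are the log2 ratio (OsxCre;Stat3fl/fl over OsxCre) of each tested gene of the Schlafen cluster and its flanks, against the distance in kb from the first base of *Slfn5* on GRCm38. Thick bars span the gene, thin bars are ± 1 standard error, listed genes are red and others grey, and *Slfn9* (-1.20), *Slfn8* (-2.20), *AA465934* (3.17) and *Unc45bos* (1.13) are over 1 from 0.

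The listed genes were proposed as lying near *Stat3*, and their distances from it differ. *C130046K22Rik* is 2.76 Mb and *Kpna2* 6.05 Mb from *Stat3*, on the side towards the end of the chromosome. The Schlafen genes are between 17.7 and 17.9 Mb away on the other side. Within 5 Mb of *Stat3*, 3 of 187 tested genes passed an adjusted p of 0.05 (1.604%), within 10 Mb 6 of 278 (2.16%) and within 20 Mb 13 of 539 (2.41%), where 1.26% of all genes tested did. Without the listed genes, these were 2 of 186 (1.08%), 4 of 276 (1.45%) and 9 of 530 (1.70%). Farther along the chromosome, 7 of 321 genes between 20 and 40 Mb (2.18%) and 8 of 372 beyond 40 Mb (2.15%) passed. Over all other chromosomes 1.19% passed. Chromosome 11 as a whole had 28 of 1232 (2.27%), and 24 of 1223 (1.96%) without the listed genes, where chromosomes 14, 16 and 3 had 2.11%, 2.06% and 2.05%. These shares are descriptions of the same contrast that chose the listed genes, and strain variants were not read.

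Of the 13 genes within 20 Mb, 9 were not listed. *Dusp3*, which encodes a phosphatase of MAP kinases and lies 1.03 Mb from *Stat3*, fell from 106 ± 9.16 to 64.1 ± 4.30 CPM (SD, n = 3 each; log2 ratio -0.73, adjusted p = 0.0165). *Abca5*, a lipid transporter gene, rose from 19.0 ± 1.84 to 37.1 ± 4.28 CPM (SD, n = 3 each; log2 ratio 0.96, adjusted p = 0.0178). *Pde6g*, which encodes a phosphodiesterase subunit of photoreceptors, rose from 0.404 ± 0.227 to 3.999 ± 1.04 CPM (SD, n = 3 each; adjusted p = 0.0180). The other genes called besides *AA465934* had log2 ratios of -0.58 for *Nme1*, -1.66 for *BC006965*, -0.55 for *Galk1*, -0.84 for *Kcnj2* and 0.46 for *Erbb2*, with adjusted p-values between 0.0227 and 0.0433. Lower and higher genes were both found on each side of *Stat3*. Of the 6 fits that each left out 1 library, *Dusp3* passed in 3, *Abca5* in 4, *Pde6g* in 2, *Nme1*, *BC006965* and *Galk1* in 1 each, *Kcnj2* and *Erbb2* in 0 and *AA465934* in all 6. Without scaling *Erbb2* had a log2 ratio of 0.07 (adjusted p = 0.654).

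**Figure D4:**
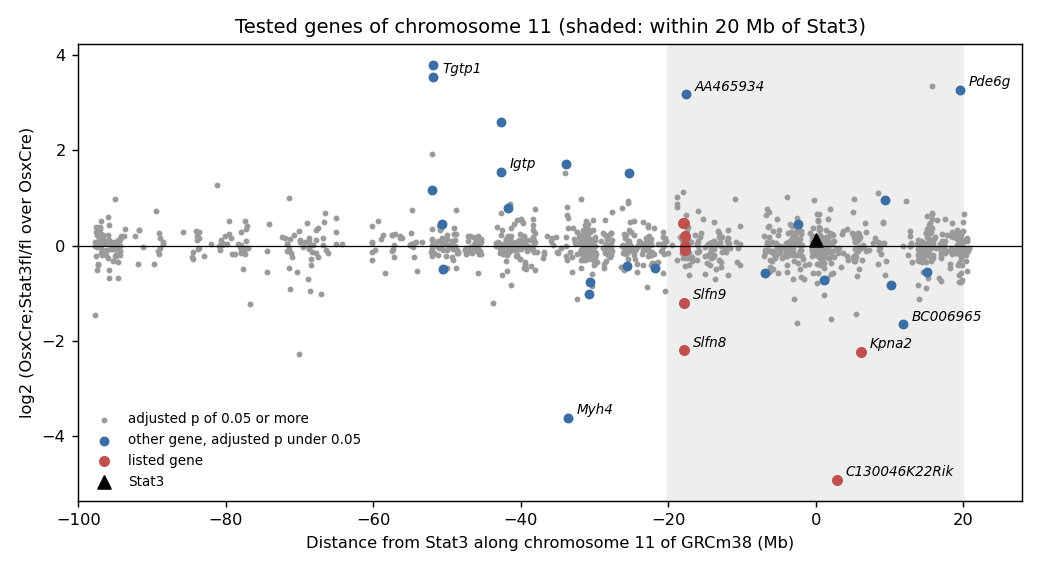
The log2 ratio (OsxCre;Stat3fl/fl over OsxCre) of each tested gene on chromosome 11 against its distance from *Stat3* in Mb (GRCm38), with listed genes red, other genes under an adjusted p of 0.05 blue, the rest grey and the 20 Mb window shaded. Of the 28 called genes, 13 lie in the shaded window and 15 outside it.

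Since many Schlafen genes respond to interferon, 22 other interferon-induced genes were read as a list. It too was fixed with earlier results of these data known, so its signs are a description. With TMM scaling all 22 had positive log2 ratios, with a median of 0.60. Without scaling 18 did, with a median of 0.22 where that of all genes was -0.38. Of them, 3 passed the test with TMM scaling, where 0.776% of all genes passed as higher, and 1 passed without scaling. *Oasl2* rose from 15.3 ± 0.327 to 30.4 ± 4.45 CPM, *Irf7*, a transcription factor of the interferon response, from 14.7 ± 1.17 to 25.6 ± 2.39 CPM, and *Bst2*, which tethers virus particles, from 40.3 ± 6.66 to 64.3 ± 2.09 CPM (SD, n = 3 each). Their adjusted p-values were 0.0180, 0.0279 and 0.0445, and each passed in 1 of the 6 fits that left out 1 library. *Irf7* (log2 ratio 0.42, adjusted p = 0.0607) and *Bst2* (log2 ratio 0.29, adjusted p = 0.198) did not pass without scaling. With TMM scaling *Slfn5* and *Slfn2* each had a log2 ratio of 0.47, and *Slfn8* and *Slfn9* had -2.20 and -1.20. A link between the Schlafen values and those of the interferon list was not tested.

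Schlafen genes are expressed in leukocytes, and in bulk bone fewer cells of a type and less RNA per cell cannot be told apart. The 5 neutrophil markers (*S100a8*, *S100a9*, *Ngp*, *Ltf* and *Camp*) summed to between 268 and 466 CPM in the *OsxCre* libraries and between 112 and 178 CPM in the floxed-labelled ones. All 5 had negative log2 ratios, and *S100a9* fell from 161 ± 44.6 to 67.6 ± 13.3 CPM (SD, n = 3 each; log2 ratio -1.25, adjusted p = 0.0423). *Ptprc*, the common leukocyte gene, was at 16.2 to 21.8 CPM against 11.5 to 16.2 CPM (adjusted p = 0.253). The 5 macrophage and monocyte markers summed to between 98.2 and 108 CPM against between 112 and 118 CPM, with 3 positive and 2 negative log2 ratios, and 0 of them passed the test. The 4 T cell markers summed to between 1.90 and 3.16 CPM against between 2.40 and 3.73 CPM, and the 4 B cell markers to between 10.1 and 16.2 CPM against between 10.3 and 13.9 CPM. No marker of these cell types was at 0 in all libraries. The 5 skeletal muscle markers summed to between 19568 and 21053 CPM against between 22600 and 33201 CPM. Of them, *Myh3* passed the test as higher (log2 ratio 1.71, adjusted p = 0.0204) and the other 4 did not, and *Acta1* overlapped between the genotypes. Of the osteoblast markers, *Ibsp*, a mineral-binding matrix protein gene, fell from 1000 ± 65.1 to 632 ± 27.1 CPM (SD, n = 3 each; adjusted p = 0.0213), and the other 5 did not pass. With DESeq2's Wald test, by which 1.48% of all genes passed as lower and 1.97% as higher, 2 of the 6 osteoblast and 4 of the 5 neutrophil markers passed as lower and 4 of the 5 muscle markers as higher. Without the filter (0.635% of all genes lower), 2 osteoblast and 4 neutrophil markers passed as lower, and without scaling (34.9%) 4 and 5 did. *S100a9* passed in 0, and *Myh3* and *Ibsp* in 2 each, of the 6 fits that left out 1 library. The part of these cell types in the values of the Schlafen genes was not tested.

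The patterns most like those of 2 of the genes were sought over all tested genes by the Pearson correlation of log2 CPM over the 6 libraries, as a description. For *C130046K22Rik*, which was near 0 counts in the floxed-labelled libraries, they were *Ift80* (0.998), *Myh4* (0.996) and *Srsf1* (0.996). *Ift80* is on chromosome 3, and *Myh4* and *Srsf1* are on chromosome 11. In all, 174 genes had a correlation over 0.95 with *C130046K22Rik*. *Myh4*, a myosin gene, had a log2 ratio of -3.61, whereas the 5 skeletal muscle markers read above had positive ones. For *Slfn2*, whose log2 ratio was the most positive of the list with TMM scaling and edgeR but nearly equal to that of *Slfn5*, which was above it in some other settings, they were *Tsga10* (0.989), *Bap1* (0.977) and *Sclt1* (0.976), and 30 genes had a correlation over 0.95. These correlations share the split of the 6 libraries into 2 genotypes.

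**Figure D5:**
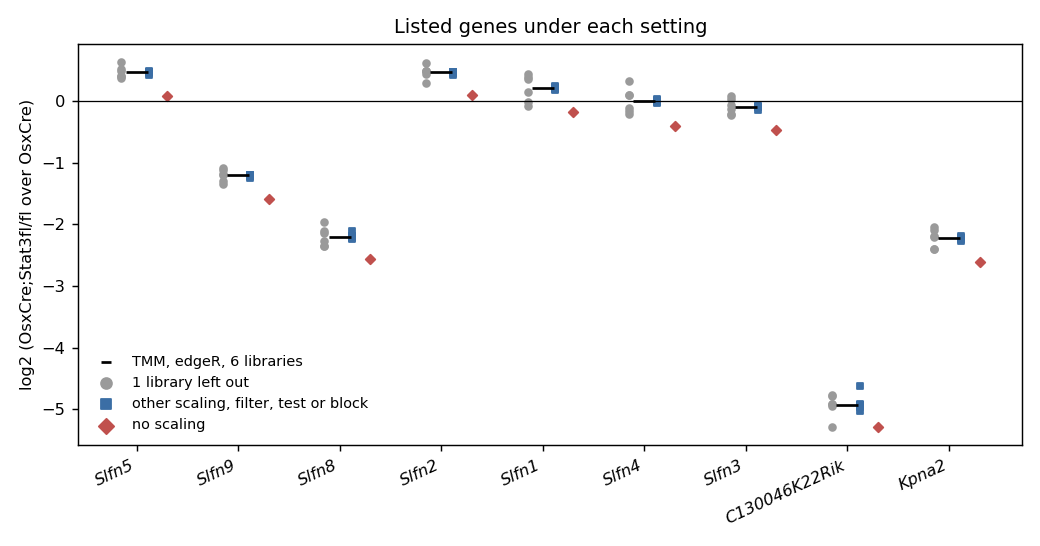
Points are the log2 ratio (OsxCre;Stat3fl/fl over OsxCre) of each listed gene under the setting reported and under 15 other settings of scaling, filter, test or library left out. *Slfn8*, *Slfn9*, *Kpna2* and *C130046K22Rik* are negative under all of them, *Slfn2* and *Slfn5* positive, and *Slfn1*, *Slfn3* and *Slfn4* cross 0.

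Across the other settings plotted, *C130046K22Rik* was between -5.29 and -4.63, *Kpna2* between -2.60 and -2.05, *Slfn8* between -2.56 and -1.96 and *Slfn9* between -1.59 and -1.09. *Slfn2* was between 0.10 and 0.62 and *Slfn5* between 0.08 and 0.63. Each of these 6 genes kept its direction, while *Slfn1* (-0.18 to 0.45), *Slfn3* (-0.47 to 0.08) and *Slfn4* (-0.40 to 0.32) did not. All settings reuse the counts that chose the list, and the 6 genes did not overlap between genotypes. Leaving out 1 library could therefore hardly turn their sign, and nothing is read from its staying the same.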

How the data were processed

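The authors deposited a table of whole-number read counts per gene symbol for each library, without normalization. The submitters' processing notes name HISAT2 and GRCm38, whereas the Methods of the study describe TopHat and mm9. The counting program and annotation are not given in the sources used here. Genotypes came from the labels.

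The genotypes were compared with edgeR 4.0.16 under R 4.3.3 (filterByExpr with a minimum count of 10 and a minimum total count of 15, TMM scaling, two-sided quasi-likelihood test, Benjamini-Hochberg adjustment over 15600 genes). CPM values used the TMM-scaled library size, and standard errors came from the F statistic. A floor of 3 counts was used. DESeq2 1.42.0, limma 3.58.1 (voom), other scalings and filters, the replicate number as a block and each library left out were alternatives. The fits were tested on simulated counts. Replicates differed beyond sampling noise, with a chi-square between 7.51 and 15.6 per degree of freedom.

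The 9 genes and the other lists were chosen with earlier results of these data known. Other genes were named by rule: *Stat3*, Schlafen relatives, 5 importins, the 3 nearest tested genes on each side of each locus, called genes within 20 Mb of *Stat3* (the 12 with the smallest p, and *Erbb2* named after its values were seen), called members of the lists, and the 3 genes most correlated with the lowest and the highest of the 9 (log2 CPM with a prior count of 2). *Gm10184*, *Gm10259*, *Gm11427*, *Slfn5os*, *Mki67*, *Ptprc* and the neutrophil markers were named as copies, antisense genes or list members. Positions and promoter windows came from RefSeq on GRCm38.p6, with a position for 97.1% of the genes tested. Windows were found for all 9 genes. Exon lengths and sequence copies came from the NCBIM37 genome and its GENCODE annotation, searched with BLAST 2.17.0.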

Additional observations from a re-analysis of the deposited data

How the results depend on the processing

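With TMM scaling and edgeR, 75 genes were called lower and 121 higher. These counts were 231 and 307 with DESeq2's Wald test, and 178 and 250 without the filter on low counts. Library totals alone gave 114 lower genes, and no scaling gave 5451. Leaving out 1 library gave between 5 and 36 lower and between 7 and 67 higher genes. Within 20 Mb of *Stat3*, 13 genes were called, with 38 by the Wald test, 29 without the filter, 236 without scaling, between 2 and 10 with 1 library left out, 3 in a window of 5 Mb and 6 in one of 10 Mb. Of the 18 neighbours, 11 were called without scaling and 1 in each fit with 1 library left out. Without scaling the median log2 ratio of all genes was -0.38 and that of *Stat3* was -0.26, the reverse of its sign with TMM. Same-numbered libraries did not vary together (correlations of their deviations of -0.101, -0.518 and -0.0850). Between differently numbered libraries the correlations were between -0.445 (*OsxCre* 3 with floxed-labelled 1) and 0.508 (*OsxCre* 2 with floxed-labelled 1). A pairing by litter in another order was not tested. With the replicate block 1 gene was called lower and 0 higher, 0 within 20 Mb, 0 of the 9 genes and 0 of the neighbours, *AA465934* having an adjusted p of 0.0522. The number of the 9 genes without overlap between genotypes was between 4 (without scaling) and 7 (without *OsxCre* replicate 3). With fewer libraries a gene separates more easily. The shares of all genes without overlap, 12.2% lower and 10.8% higher, are given only for TMM scaling with all libraries. Nothing is therefore read from these numbers. The cause of the changes between settings was not tested. Depth limits *C130046K22Rik*, *Slfn8*, *Slfn3*, *Kpna2* and *Slfn1* most, with 4 to 53 counts in the genotype that had fewer.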
